A study of Mus musculus with 12 samples.

Results

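Of 6 genes of the primitive endoderm described here, 5 encode transcription factors (*Gata4*, *Gata6*, *Sox17*, *Sox7* and *Foxa2*) and 1 a receptor (*Pdgfra*). They were selected by symbol, with earlier results of these data known, from the 23412 genes of the count tables and followed through all 12 libraries. Bulk poly-A RNA-Seq was made from mouse embryonic stem cells (mESCs) of the male line v6.5, grown in serum and LIF and harvested at 48 h. There were 4 groups with 3 biological replicates each. WT mESCs were the unedited line. *Hmgn1-/-* mESCs lacked 1 bp of exon 3 on both alleles of *Hmgn1*, and *Hmgn2-/-* mESCs carried 1 extra bp in exon 4 on both alleles of *Hmgn2*. *Hmgn1-/-Hmgn2-/-* mESCs came from a further edit of *Hmgn1* in cells of the *Hmgn2-/-* line. Every knockout line was grown from a single edited cell, so that the loss of a gene and the history of that clone cannot be told apart.

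The primitive endoderm is the layer of the late blastocyst that faces the cavity and later forms the parietal and visceral endoderm of the yolk sacs. It separates from the pluripotent epiblast under FGF and ERK signaling, with GATA6 acting early and GATA4, SOX17 and SOX7 following as the layer matures, while PDGFRA marks its cells on the surface. Cultures of mESCs in serum and LIF are known to hold a small and variable number of cells that express such genes, next to a majority of epiblast-like cells. HMGN1 and HMGN2 are small proteins that bind nucleosomes without a preference for DNA sequence, and the comparisons ask how the RNA of these genes differed when one or both were lost.

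The guides that define the groups are shown first, from the oligonucleotides listed by the study, written 5′ to 3′ with capitals for the bases that lie in the targeted exon.
Hmgn1 guide: acttacGGCCGACAGCCTCG
Hmgn2 guide: aggctggcttacCTTCGCAG
Both run antisense to their gene. In the annotation of GRCm38 (mm10), 14 bases of the *Hmgn1* guide match the end of exon 3 of *Hmgn1*, a 30 bp exon at chr16:96127311-96127340. Of the *Hmgn2* guide, 8 bases match the end of exon 4 in the longest transcript of *Hmgn2*, a 51 bp exon at chr4:133966429-133966479. The lower-case bases were not placed on the genome, since only transcripts were read.

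The targeted genes were examined in every library as a check of the labels. *Hmgn1* had 625 ± 32.8 CPM, that is, counts scaled to library size with TMM factors (SD, n = 3), in WT mESCs, 580 ± 52 in *Hmgn2-/-*, 140 ± 1.72 in *Hmgn1-/-* mESCs and 20.9 ± 0.88 in the double knockout. *Hmgn2* had 126 ± 9.2 CPM in WT, 109 ± 3.9 in *Hmgn1-/-*, 53 ± 2.01 in *Hmgn2-/-* mESCs and 52.8 ± 2.02 in the double knockout. In each case the libraries labelled as knockouts of a gene had the lowest levels of it, without overlap with the others. The 11 genes of a pluripotency list, with *Pou5f1* as the most abundant, were tested as markers of mESCs. Their summed level was 5740 ± 96.5 CPM in WT, 5740 ± 231 in *Hmgn1-/-*, 5570 ± 516 in *Hmgn2-/-* and 5420 ± 362 in *Hmgn1-/-Hmgn2-/-* mESCs (SD, n = 3 each). The label of mESCs was thus met in all groups. By edgeR (quasi-likelihood test, Benjamini-Hochberg adjusted), 0 of the 11 were past the threshold used below in any knockout against WT mESCs. An adjusted p under 0.01 in edgeR was seen for 4, 2 and 4 of them in *Hmgn1-/-*, *Hmgn2-/-* and the double knockout, below the limit on the fold, where 17.3%, 9.97% and 18% of all genes tested had such a p. An unadjusted p under 0.05 in edgeR was seen for 6 of them in each knockout, against 38.7%, 31% and 38.9% of all genes, and DESeq2 put 0 past the threshold. *Klf4* (log2 FC 0.93, 0.69 and 0.74 in *Hmgn1-/-*, *Hmgn2-/-* and the double knockout) and *Nanog* (−0.32, −0.50 and −0.45) were picked out after their values were seen. The median of the list was −0.08, −0.06 and −0.08.

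Library totals ran from 17337908 to 31448468 counts, and the shallowest libraries were *Hmgn2-/-* replicate 3 and WT replicate 2. *Hmgn2-/-* replicate 3 stood apart from its group. It had the lowest value of its group for 5 of the 6 genes, at 61.1% (*Gata6*) to 69.2% (*Gata4*) of the mean of the other replicates, with *Sox17* at 88.8% as the exception. The summed level of 4 endocytic genes of the endoderm was 64.3% of that mean, and the summed pluripotency level was 115% of it. The tests of the 6 genes that use this library are given below with and without it. What set it apart was not tested. In a bulk sample, a larger number of endoderm cells and more RNA of these genes in each cell cannot be told apart, which holds for every difference described here.

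**Figure D1:**
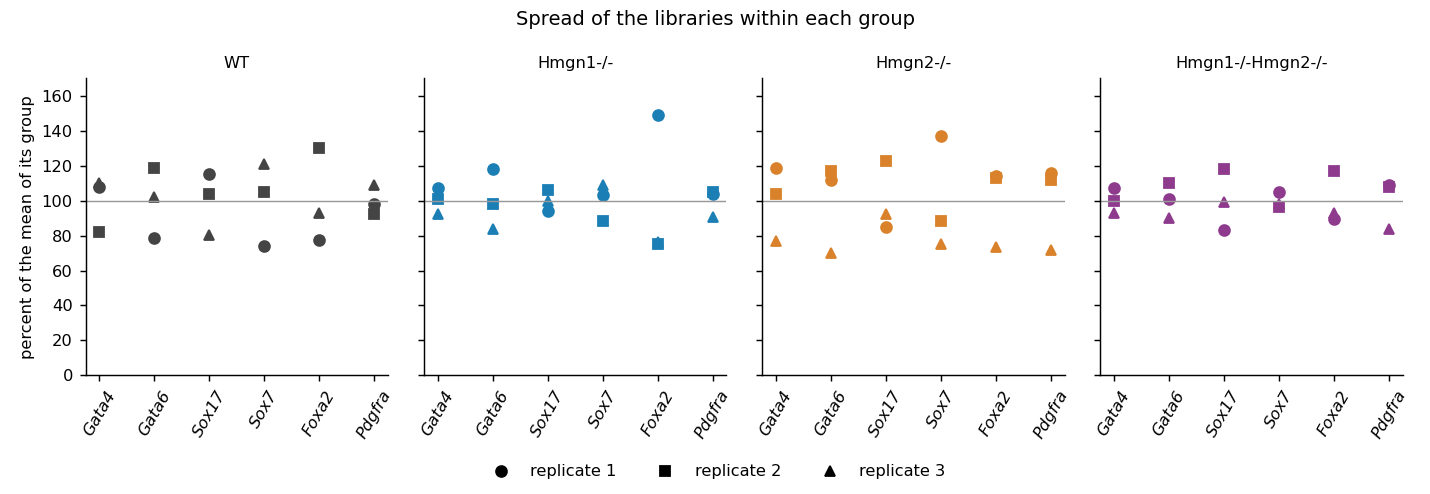
Each library's level of the 6 genes as a percentage of the mean of its own group, with symbols for the replicate number. *Hmgn2-/-* replicate 3 (triangles in the third panel) lies below its group's mean for all 6 genes, and *Foxa2* in *Hmgn1-/-* replicate 1 lies at 149%.

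Among the transcription factors, *Gata4* encodes a zinc finger protein that binds GATA motifs and drives genes of the extraembryonic endoderm. It lies at chr14:63198922-63271692 on the minus strand of GRCm38. *Gata4* had 2.91, 2.21 and 2.95 CPM in WT replicates 1 to 3, and 17.2, 16.1 and 14.8 CPM in *Hmgn1-/-* mESCs. It had 22.9, 20.1 and 14.9 CPM in *Hmgn2-/-* mESCs and 39.1, 36.2 and 33.8 CPM in the double knockout. All 9 knockout libraries were above all WT libraries and the double knockout was above both single knockouts, whose ranges overlapped. The raw numbers behind these levels were 39 to 93 counts in WT mESCs and 802 to 1222 in the double knockout.

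The gene *Gata6* encodes the GATA factor that is needed first for the primitive endoderm fate, and lies at chr18:11052064-11085635 on the plus strand. Its levels were 1.31, 1.98 and 1.7 CPM in WT mESCs and 10.4, 8.64 and 7.38 CPM in *Hmgn1-/-* mESCs. They were 12.7, 13.2 and 7.91 CPM in *Hmgn2-/-* mESCs and 25.3, 27.6 and 22.6 CPM in the double knockout. The order of the groups was that of *Gata4*, again with the single knockouts overlapping. *Hmgn2-/-* replicate 3 lay within the range of the *Hmgn1-/-* libraries, while the other *Hmgn2-/-* replicates were above it.

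The gene *Sox17* encodes an HMG-box factor of endoderm, at chr1:4490931-4497354 on the minus strand. It was close to absent in WT mESCs, with 0.5, 0.452 and 0.347 CPM from 16, 8 and 10 counts. *Hmgn1-/-* mESCs had 4.26, 4.77 and 4.54 CPM and *Hmgn2-/-* mESCs had 4.64, 6.74 and 5.05 CPM. The double knockout had 9.82, 13.9 and 11.7 CPM, so that its lowest library was above the highest of any other group. *Sox7* encodes a related HMG-box factor that also acts in endothelium, at chr14:63943673-63950732 on the plus strand. Its WT levels were 2.28, 3.22 and 3.71 CPM, and those of *Hmgn1-/-* mESCs were 4.72, 4.06 and 5 CPM. *Hmgn2-/-* mESCs had 6.91, 4.47 and 3.8 CPM, and the double knockout had 11.8, 10.8 and 11 CPM. In the single knockouts the lowest *Sox7* library was only just above the highest WT library, whereas the double knockout stood well clear of all others.

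The gene *Foxa2* encodes a forkhead factor of endoderm that opens chromatin at its targets, at chr2:148042877-148046969 on the minus strand. The levels were 0.406, 0.679 and 0.486 CPM in WT mESCs and 1.61, 0.812 and 0.825 CPM in *Hmgn1-/-* mESCs. They were 1.11, 1.1 and 0.713 CPM in *Hmgn2-/-* mESCs and 1.86, 2.44 and 1.93 CPM in the double knockout. A library of *Foxa2* held 12 to 58 counts, and *Hmgn1-/-* replicate 1 was nearly as high as the lowest library of the double knockout. No knockout group overlapped with WT mESCs, but the gap between the highest WT and the lowest *Hmgn2-/-* library was small.

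The receptor gene *Pdgfra* encodes a tyrosine kinase for platelet-derived growth factors that supports the survival of primitive endoderm cells, and lies at chr5:75152292-75198215 on the plus strand. It had 0.782, 0.735 and 0.868 CPM in WT mESCs and 9.66, 9.74 and 8.44 CPM in *Hmgn1-/-* mESCs. It had 12.5, 12.1 and 7.73 CPM in *Hmgn2-/-* mESCs and 25.9, 25.8 and 19.9 CPM in the double knockout. The WT libraries were tightly grouped and far below every knockout library. The single knockouts overlapped, with *Hmgn2-/-* replicate 3 as the lowest of both lines.

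**Figure D2:**
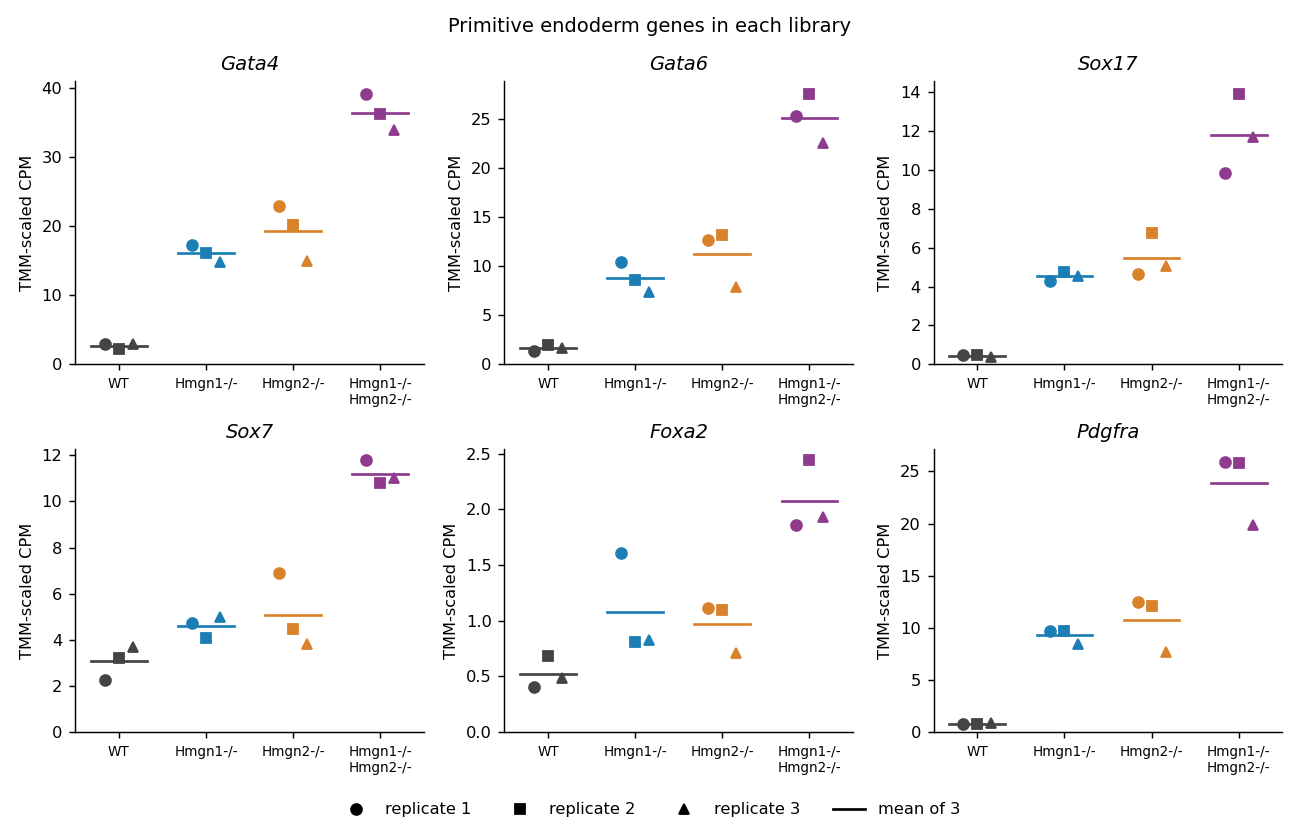
CPM of the 6 genes in each of the 12 libraries, with the mean of each group as a line and a separate vertical scale for each gene. The double knockout is above the single knockouts for each gene, and *Sox7* and *Foxa2* show the smallest steps from WT mESCs to the single knockouts.

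Promoter windows were read for the genes with an entry in the RefSeq table of GRCm38.p6, 250 bases before to 50 after an annotated start, and are shown because the members were higher together in the knockouts. Of the 6 genes, 2 had an entry, with 3 windows for *Foxa2* and 1 for *Pdgfra*. Capitals mark matches to GATA strings (AGATAA or AGATAG or TGATAA or TGATAG), SOX strings (ACAAAG or ACAATG) and FOX strings (TGTTTAC or TATTTAC or TGTTTGC or TATTTGC), searched on both strands. The *Foxa2* window shown, at chr2:148045415-148045714 on the minus strand, starts inside the span of the gene.
Foxa2 promoter: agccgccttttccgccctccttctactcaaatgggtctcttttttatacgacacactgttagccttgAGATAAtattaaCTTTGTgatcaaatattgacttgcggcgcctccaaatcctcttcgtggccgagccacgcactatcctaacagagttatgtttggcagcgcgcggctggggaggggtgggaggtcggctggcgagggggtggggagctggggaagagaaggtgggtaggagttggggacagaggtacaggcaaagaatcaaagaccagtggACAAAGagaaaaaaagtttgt
Pdgfra promoter: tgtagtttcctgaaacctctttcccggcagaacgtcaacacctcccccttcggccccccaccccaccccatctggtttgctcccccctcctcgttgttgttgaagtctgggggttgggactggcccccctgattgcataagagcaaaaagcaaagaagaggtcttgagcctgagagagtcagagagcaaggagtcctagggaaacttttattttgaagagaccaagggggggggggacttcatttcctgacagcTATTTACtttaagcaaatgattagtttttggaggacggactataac
The *Pdgfra* window is chr5:75152001-75152300 on the plus strand and ends in the first exon of the gene. The *Foxa2* window held AGATAA at position 68, counted from 1 at its 5′ end, and ACAAAG at positions 80 (on the opposite strand) and 280. The *Pdgfra* window held TATTTAC at position 255. The other windows of *Foxa2* held no match. Of 32851 promoters, 29.8% held a GATA string, 28.6% a SOX string and 13.5% a FOX string, so that such matches are common and describe the letters only.

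On a scale corrected for length (CPM per kilobase of exon, RPKM), the genes can be compared with each other. In WT mESCs the mean RPKM was highest for *Sox7* (0.932) and *Gata4* (0.689), followed by *Gata6* (0.256), *Foxa2* (0.221), *Sox17* (0.0908) and *Pdgfra* (0.0793). *Sox7* made up 40.7% of the summed RPKM of the 6 genes and *Gata4* 30.7%. In the double knockout *Gata4* led with 9.32 RPKM, or 41.8% of the sum, before *Gata6* (3.86), *Sox7* (3.39), *Sox17* (2.47), *Pdgfra* (2.38) and *Foxa2* (0.876). The makeup of the set therefore differed from that of WT mESCs, with *Sox7* at 15.2% of the sum. Both single knockouts already had this makeup, with *Gata4* at 44.8% and 45.6% and *Sox7* at 15.2% and 14.1% of the summed RPKM in *Hmgn1-/-* and *Hmgn2-/-* mESCs. The summed RPKM itself was 2.27 ± 0.259 in WT, 9.18 ± 0.707 in *Hmgn1-/-*, 10.8 ± 2.24 in *Hmgn2-/-* and 22.3 ± 1.4 in *Hmgn1-/-Hmgn2-/-* mESCs (SD, n = 3 each). Without replicate 3, the mean of *Hmgn2-/-* mESCs was 12.1 RPKM. These shares and sums were not tested.

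Loss of HMGN1 was accompanied by higher RNA of the GATA factors, *Sox17* and *Pdgfra*. In *Hmgn1-/-* against WT mESCs, *Pdgfra* rose most, by a log2 FC of 3.53 (standard error 0.183), followed by *Sox17* (3.37, standard error 0.247), *Gata4* (2.55, standard error 0.141) and *Gata6* (2.44, standard error 0.196). Their adjusted p ran from 1.99e-08 for *Pdgfra* to 1.01e-06 for *Gata6* in edgeR (quasi-likelihood test, Benjamini-Hochberg adjusted over all genes tested). The threshold asked for an adjusted p below 0.01 together with a log2 FC of 1 or more in size. *Sox7* (0.59, standard error 0.2, adjusted p = 0.0394) and *Foxa2* (1.12, standard error 0.376, adjusted p = 0.0385) did not pass it in this edgeR test. The threshold was thus passed by 4 of the 6 genes, all higher, where 0.898% of the 13917 genes tested were higher and 5.08% lower. All 6 had every knockout library above every WT library, which 20.7% of all genes showed. The median log2 FC was 2.50 over the 6 genes and 0.00 over all genes tested. Without *Hmgn1-/-* replicate 1, the log2 FC of *Foxa2* was 0.70, and without WT replicate 1 that of *Sox7* was 0.39.

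Loss of HMGN2 was accompanied by higher RNA of the same genes. In *Hmgn2-/-* against WT mESCs the log2 FC was 3.76 for *Pdgfra* (standard error 0.237), 3.66 for *Sox17* (0.265), 2.83 for *Gata4* (0.187) and 2.81 for *Gata6* (0.234). These 4 genes rose, with adjusted p from 3.74e-06 for *Pdgfra* to 2.25e-05 for *Gata6* in edgeR (quasi-likelihood test, Benjamini-Hochberg adjusted). *Sox7* (0.75, standard error 0.255, adjusted p = 0.0634) and *Foxa2* (0.98, standard error 0.335, adjusted p = 0.0657) again missed the threshold of the same edgeR test. Of 14047 genes tested, 0.776% were past the threshold and higher and 4.38% lower. The libraries of all 6 genes did not overlap with those of WT mESCs, as was the case for 16.6% of genes in this direction. The median log2 FC was 2.82 against 0.01 over all genes. Without *Hmgn2-/-* replicate 3 the same 4 genes were past the threshold, with log2 FC of 2.98 for *Gata4*, 3.00 for *Gata6*, 3.71 for *Sox17* and 3.94 for *Pdgfra*, while *Sox7* (0.90) and *Foxa2* (1.13) were not. *Sox7* was at 0.45 without *Hmgn2-/-* replicate 1. The comparisons with WT mESCs share their 3 WT libraries and are not independent of each other.

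In the double knockout all 6 genes rose. The log2 FC of *Hmgn1-/-Hmgn2-/-* against WT mESCs was 4.89 for *Pdgfra* (standard error 0.169), 4.75 for *Sox17* (0.222), 3.95 for *Gata6* (0.15) and 3.73 for *Gata4* (0.122). *Foxa2* (2.03, standard error 0.292) and *Sox7* (1.88, standard error 0.165) were past the threshold here too. The adjusted p ran from 1.14e-10 for *Gata4* to 1.51e-04 for *Foxa2* in edgeR (quasi-likelihood test, Benjamini-Hochberg adjusted). The background was 1.3% of 14128 genes higher and 5% lower past the threshold, and 20.7% with all double knockout libraries above all WT libraries. The median was 3.84 over the 6 genes and 0.00 over all genes tested. With each library left out in turn, all 6 stayed past the threshold.

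**Figure D3:**
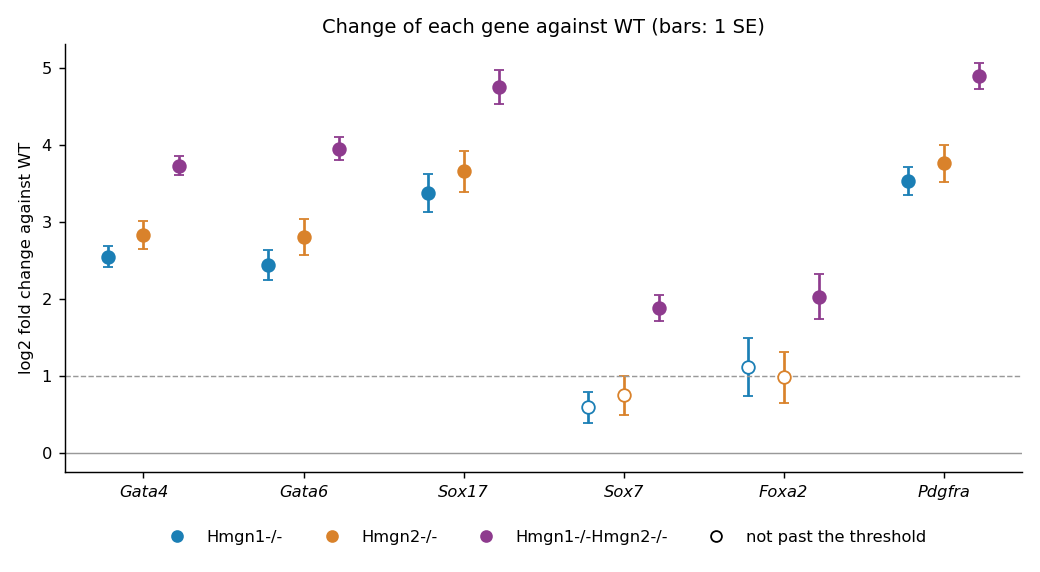
Log2 FC against WT mESCs of each gene in the 3 knockout groups, with bars of 1 standard error and open symbols for values not past the threshold. *Pdgfra* and *Sox17* have the largest values in each group, from 3.37 to 4.89, and *Sox7* and *Foxa2* are past the threshold in the double knockout, with open symbols in the single knockouts.

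Loss of HMGN2 in addition to HMGN1 was examined by setting the double knockout against *Hmgn1-/-* mESCs. The double line was not made from the *Hmgn1-/-* line, and its *Hmgn1* was edited anew. *Hmgn1* RNA was also lower in it, with a log2 FC of −2.73 beside −1.05 for *Hmgn2*. The loss of HMGN2, the further drop of *Hmgn1* and the difference between clones cannot be told apart here. *Gata6* rose by a log2 FC of 1.51 (standard error 0.122), *Sox17* by 1.38 (0.144), *Pdgfra* by 1.36 (0.117), *Sox7* by 1.28 (0.123) and *Gata4* by 1.18 (0.0887). Adjusted p for these 5 genes ran from 8.82e-07 for *Gata4* to 2.88e-05 for *Sox17* in edgeR (quasi-likelihood test, Benjamini-Hochberg adjusted). *Foxa2* had a log2 FC of 0.90 (standard error 0.284, adjusted p = 0.203, same edgeR test). Only 0.35% of 13710 genes were past the threshold and higher, and 7.83% had every double knockout library above every *Hmgn1-/-* library, as did all 6 genes. The median log2 FC was 1.32 over the 6 genes and −0.00 over all genes.

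Loss of HMGN1 in addition to HMGN2 was the edit by which the double line was made from the *Hmgn2-/-* line. In *Hmgn1-/-Hmgn2-/-* against *Hmgn2-/-* mESCs, the log2 FC was 1.14 for *Gata6* (standard error 0.169), 1.13 for *Pdgfra* (0.174), 1.12 for *Sox7* (0.191), 1.09 for *Sox17* (0.177), 1.04 for *Foxa2* (0.244) and 0.91 for *Gata4* (0.141). By edgeR (quasi-likelihood test, Benjamini-Hochberg adjusted), 0 of the 6 were past the threshold, with adjusted p from 0.041 for *Gata6* to 0.245 for *Foxa2*. All 6 had an unadjusted p under 0.05 in edgeR and were higher, as 2.76% of all genes were, and DESeq2 put 4 of them past the threshold and higher, against 0.197% of all genes. The background of the edgeR test was 0.0362% of 13816 genes past the threshold and higher. All 6 genes had their 3 double knockout libraries above the 3 *Hmgn2-/-* libraries, as 5.32% of all genes did, and the median was 1.11 against −0.00.

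Replicate numbers paired the libraries in that comparison, and a fit with the replicate block put 4 of the 6 genes past the threshold and higher, against 0.217% of all genes. Their log2 FC was 1.16 for *Gata6*, 1.15 for *Pdgfra*, 1.14 for *Sox7* and 1.10 for *Sox17*, with adjusted p from 5.87e-06 to 5.48e-04 in edgeR (quasi-likelihood test, Benjamini-Hochberg adjusted). *Gata4*, at 0.92 with the block (adjusted p = 2.42e-05, same edgeR test), missed only the limit on the fold. Single libraries also mattered. Without *Hmgn2-/-* replicate 1, *Gata4* (1.04) and *Sox7* (1.42) were past the threshold. Without *Hmgn2-/-* replicate 3, the values were 0.76 for *Gata4*, 0.95 for *Gata6*, 1.04 for *Sox17*, 0.98 for *Sox7*, 0.89 for *Foxa2* and 0.96 for *Pdgfra*, and 0 were past it, as in the main fit. There *Gata4* (adjusted p = 0.005), *Gata6* (0.00202) and *Pdgfra* (0.00607) missed only the limit on the fold in the same edgeR test.

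The single knockouts were close to each other. In *Hmgn2-/-* against *Hmgn1-/-* mESCs the log2 FC was 0.37 for *Gata6* (standard error 0.194), 0.29 for *Sox17* (0.172), 0.27 for *Gata4* (0.147), 0.23 for *Pdgfra* (0.172), 0.16 for *Sox7* (0.216) and −0.14 for *Foxa2* (0.339). By edgeR (quasi-likelihood test, Benjamini-Hochberg adjusted) 0 of the 6 were past the threshold, 0 had an unadjusted p under 0.05, and DESeq2 called 0. Of all 13648 genes, 0.0586% were past the threshold and higher. The library ranges overlapped for each of the 6 genes. The libraries of this comparison were also paired by replicate number, and within the 3 pairs *Hmgn2-/-* was above *Hmgn1-/-* in 3 for *Gata4*, *Gata6* and *Sox17*, in 2 for *Pdgfra* and *Sox7* and in 1 for *Foxa2*. With the replicate block the log2 FC was 0.35 for *Gata6*, 0.27 for *Sox17*, 0.26 for *Gata4*, 0.21 for *Pdgfra*, 0.14 for *Sox7* and −0.14 for *Foxa2*, with adjusted p of 0.674 or more in edgeR (quasi-likelihood test, Benjamini-Hochberg adjusted). Without *Hmgn2-/-* replicate 3 the values were 0.55 for *Gata6*, 0.33 for *Sox17*, 0.42 for *Gata4*, 0.40 for *Pdgfra*, 0.31 for *Sox7* and 0.00 for *Foxa2*, and 0 were past the threshold. Over all 6 fits with a library left out, the values ran from 0.23 to 0.55 for *Gata6*, 0.09 to 0.40 for *Sox17*, 0.14 to 0.42 for *Gata4*, 0.12 to 0.40 for *Pdgfra*, −0.14 to 0.31 for *Sox7* and −0.31 to 0.28 for *Foxa2*. A difference smaller than the spread of these libraries was not detectable.

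The design also allows a test of whether the step that went with the loss of HMGN1 differed with HMGN2 present or absent. For *Gata4*, *Gata6*, *Sox17* and *Pdgfra* the step was smaller, on the log2 scale, in cells that already lacked HMGN2. The departure from additivity, which is the log2 FC of the double knockout against *Hmgn2-/-* minus that of *Hmgn1-/-* against WT mESCs, was −2.39 for *Pdgfra* (standard error 0.277), −2.27 for *Sox17* (0.306), −1.64 for *Gata4* (0.207) and −1.30 for *Gata6* (0.279). These 4 values were past the threshold in a fit of all 12 libraries, with adjusted p from 4.80e-05 for *Pdgfra* to 0.00566 for *Gata6* in edgeR (quasi-likelihood test, Benjamini-Hochberg adjusted). Past the threshold, 0.503% of 14323 genes had a negative and 2.98% a positive departure. *Sox7* (0.53, standard error 0.29, adjusted p = 0.271) and *Foxa2* (−0.07, standard error 0.435, adjusted p = 0.944) showed none that passed the same edgeR test. The median was −1.47 over the 6 genes and −0.01 over all genes. *Gata6* kept its call in 4 of 12 fits with a library left out, and was at −1.14 without WT replicate 1 (adjusted p = 0.0211, same edgeR test). Without *Hmgn2-/-* replicate 3 the 4 genes stayed past the threshold, at −2.57 for *Pdgfra*, −2.32 for *Sox17*, −1.79 for *Gata4* and −1.49 for *Gata6*, with *Sox7* at 0.38 and *Foxa2* at −0.23.

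The sign of this departure depended on the scale. If the increases of the single knockouts in CPM are summed on top of the WT level, the double knockout would be at 32.6 CPM for *Gata4*, 18.4 for *Gata6*, 9.57 for *Sox17*, 6.58 for *Sox7*, 1.53 for *Foxa2* and 19.2 for *Pdgfra*. The measured means were 36.4 ± 2.65, 25.1 ± 2.5, 11.8 ± 2.03, 11.2 ± 0.521, 2.08 ± 0.317 and 23.9 ± 3.41 CPM (SD, n = 3 each), in the same order. Each mean was above its sum. The excess was 6.74 CPM for *Gata6* (standard error 2.39) and 4.6 CPM for *Sox7* (standard error 1.11). For *Gata4* it was 3.75 CPM (2.89), for *Sox17* 2.22 CPM (1.34), for *Pdgfra* 4.61 CPM (2.52) and for *Foxa2* 0.543 CPM (0.356), each less than 2 of these standard errors. All standard errors on the CPM scale here treat the 4 groups as independent. Libraries of several comparisons were paired by replicate number, and the spread of the excess within replicate numbers was not computed. These standard errors therefore do not show that the excess of these genes was within its spread. Without *Hmgn2-/-* replicate 3 the excess was smaller for every gene, at 5.06 CPM for *Gata6* (standard error 1.72), 3.97 for *Sox7* (1.35), 1.54 for *Gata4* (2.19), 2.01 for *Sox17* (1.58), 3.09 for *Pdgfra* (2.02) and 0.413 for *Foxa2* (0.331). If instead the folds are multiplied, *Pdgfra* reached 19% of the product, *Sox17* 20.6%, *Gata4* 31.6% and *Gata6* 42.2%, while *Foxa2* reached 103% and *Sox7* 148%. Thus 4 of the genes (*Gata4*, *Gata6*, *Sox17* and *Pdgfra*) were nearer to the sum than to the product. *Sox7*, at 11.2 CPM, was above both its sum (6.58) and its product (7.56). *Foxa2*, at 2.08 CPM, was nearer to its product (2.01) than to its sum (1.53), and its excess over the sum had a standard error of 0.356 CPM. Which of these levels *Foxa2* followed was not tested. The CPM scale, with and without that library, was chosen after seeing the data and carries no test.

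**Figure D4:**
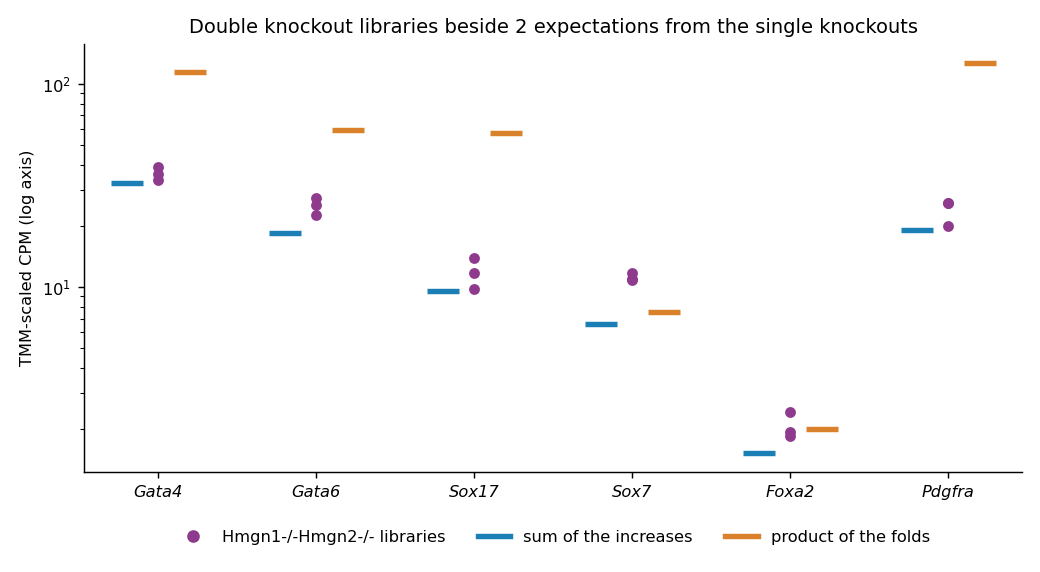
CPM of the 6 genes in the 3 double knockout libraries (points, log axis) beside the level given by adding the single knockout increases and the level given by multiplying the single knockout folds. For *Gata4*, *Gata6*, *Sox17* and *Pdgfra* the points lie just above the sum and far below the product, and for *Sox7* they lie above both.

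Other genes of the pathway and of other cell types were read from 14 lists of 95 genes, with calls from the same edgeR test, and the medians below stand beside 0.00, 0.01 and 0.00 over all genes tested in the single knockouts and the double knockout against WT mESCs. In the same order, the calls stand beside 0.898%, 0.776% and 1.3% of all genes past the threshold and higher, and 5.08%, 4.38% and 5% lower. Among relatives of the members (GATA, SOX, FOXA and PDGF receptor genes), 7 of 8 were tested. *Sox18*, a partner of *Sox17* in vessels, rose with log2 FC of 1.46, 1.35 and 1.67 in *Hmgn1-/-*, *Hmgn2-/-* and *Hmgn1-/-Hmgn2-/-* against WT mESCs. *Gata3*, a trophoblast GATA factor, fell with −3.19, −3.44 and −3.03. The medians were −0.38, −0.43 and 0.19. *Sox18* in *Hmgn2-/-* mESCs kept its call in 3 of 6 fits with a library left out, and was at 1.21 without WT replicate 3.

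Among the PDGF ligand genes, 3 of 4 were tested and 1 was past the threshold in each knockout. *Pdgfc*, which encodes a ligand of PDGFRA, fell with log2 FC of −1.62, −1.20 and −1.62 in the same order of knockouts. *Pdgfa*, the most abundant ligand RNA, had 55.8 ± 6.32 CPM in WT and 34.9 ± 1.42 in *Hmgn1-/-Hmgn2-/-* mESCs (SD, n = 3 each), a log2 FC of −0.67 that did not reach the limit on the fold. The summed CPM of the ligands was 114 in WT, 62.6 in *Hmgn1-/-*, 63.5 in *Hmgn2-/-* and 55.5 in *Hmgn1-/-Hmgn2-/-* mESCs. The ligand medians were −0.68, −0.79 and −0.81.

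Upstream of the fate, the FGF and ERK list of 11 genes gave 1 gene past the threshold in each knockout. An adjusted p under 0.01 in edgeR was seen for 5, 3 and 6 of the 11, against 17.3%, 9.97% and 18% of all genes, and an unadjusted p under 0.05 for 10, 6 and 10, against 38.7%, 31% and 38.9%. The list summed to 1330, 1520 and 1490 CPM in the WT libraries, 1650, 1630 and 1640 in *Hmgn1-/-*, 1640, 1680 and 1580 in *Hmgn2-/-*, and 1690, 1720 and 1680 in *Hmgn1-/-Hmgn2-/-* mESCs, with *Fgf4* as the most abundant gene in WT mESCs and *Etv4* in the knockouts. *Fgfr3*, an FGF receptor, rose with log2 FC of 1.11, 1.06 and 1.28, but in each single knockout it kept its call in only 2 of 6 fits with a library left out. Its lowest values there were 0.71 without *Hmgn1-/-* replicate 1 and, in *Hmgn2-/-* mESCs, 0.90 without WT replicate 3. *Fgf4*, the ligand that mESCs make, had −0.22, −0.09 and −0.14, and the ERK target *Etv4* had 0.57, 0.59 and 0.63, neither past the limit on the fold. *Fgfr2*, a further receptor that was picked out after its values were seen, had −0.69, −0.72 and −0.61, with adjusted p of 0.00213, 0.00573 and 0.00942 in the same edgeR test, and did not reach the fold limit. The medians were 0.25, 0.22 and 0.34. Among other regulators of extraembryonic endoderm, *Hnf4a*, a nuclear receptor of visceral endoderm, rose in the double knockout (1.76, adjusted p = 8.84e-04, edgeR quasi-likelihood test, Benjamini-Hochberg adjusted), with 0.16 and 0.24 in the single knockouts. The most abundant regulators in WT mESCs did not pass. These were *Sall4*, a zinc finger gene (0.05, −0.07 and −0.01), *Otx2* (−0.77, −0.97 and −0.81), *Eomes* (−0.65, −0.46 and −0.69) and *Hhex* (0.41, 0.12 and 0.25). *Otx2* missed only the limit on the fold, with adjusted p of 8.22e-05, 2.64e-04 and 6.86e-05 in the same edgeR test.

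Products of extraembryonic endoderm were split by function. Of 4 endocytic genes, 3 rose in each knockout, where 0.898%, 0.776% and 1.3% of all genes were past the threshold and higher. They were *Dab2*, an adaptor (log2 FC 2.76, 3.07 and 4.43), *Cubn*, a scavenger receptor (3.72, 3.88 and 5.38), and *Amn*, which carries cubilin to the membrane (1.74, 1.79 and 2.66). *Lrp2*, the megalin gene and the most abundant of the list, did not pass (−0.27, 0.07 and 0.64). The list medians were 2.25, 2.43 and 3.55, and the summed CPM was 107 in WT, 148 in *Hmgn1-/-*, 179 in *Hmgn2-/-* and 354 in *Hmgn1-/-Hmgn2-/-* mESCs. Against the single knockouts, the double knockout had *Dab2* (1.67) and *Cubn* (1.65) higher than *Hmgn1-/-* mESCs, and *Dab2* higher than *Hmgn2-/-* mESCs (1.36). The latter call was kept in 3 of 6 fits with a library left out, and was lost without *Hmgn2-/-* replicate 2 (1.35, adjusted p = 0.0352 in edgeR (quasi-likelihood test, Benjamini-Hochberg adjusted)), double knockout replicate 2 (1.38) or double knockout replicate 3 (1.35). The negative departure from additivity seen for 4 members was also past the threshold for *Cubn* (−2.24) and *Dab2* (−1.39). Genes with a positive departure are given with the other lists below.

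Of 7 basement membrane genes, 1, 2 and 3 rose in the 3 knockouts, against 0.898%, 0.776% and 1.3% of all genes. *Lama1*, a laminin chain, did so in each (1.21, 1.20 and 2.06), the collagen gene *Col4a1* in *Hmgn2-/-* (1.12) and in *Hmgn1-/-Hmgn2-/-* mESCs (2.32), and *Col4a2* in the latter (2.14). Without WT replicate 1 or without *Hmgn2-/-* replicate 1, *Col4a1* in *Hmgn2-/-* mESCs was at 0.99 or 0.98 and missed the fold limit, and it kept its call in 4 of 6 such fits. The other genes of the list did not reach the fold limit. *Sparc* had −0.92, −0.77 and −0.22, with adjusted p of 9.29e-05, 0.00294 and 0.15, and *Nid1* had −0.62, −0.69 and −0.63, with adjusted p of 2.39e-05, 0.00271 and 3.65e-05 in edgeR (quasi-likelihood test, Benjamini-Hochberg adjusted). *Lamc1* had 0.14, 0.11 and 0.46, and *Lamb1* −0.10, −0.04 and 0.55. The summed CPM of the list was 1300 in WT, 1320 in *Hmgn1-/-*, 1380 in *Hmgn2-/-* and 2180 in the double knockout, and the medians were 0.14, 0.11 and 0.55. *Col4a1* and *Col4a2* were also higher in the double knockout than in *Hmgn1-/-* mESCs (1.49 and 1.51). Against *Hmgn2-/-* mESCs they had 1.20 and 1.15 (adjusted p = 0.0156 each in the same edgeR test). There edgeR put 0 of the 7 genes past the threshold and DESeq2 put 2, where 0.0362% and 0.197% of all genes were past it and higher.

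Markers of the derived layers were read as lists of few genes, with no test of one list against another. Of 3 parietal endoderm genes, 2 were tested: *Pth1r*, a hormone receptor, rose in each knockout (1.49, 1.54 and 2.83) and *Plat*, a plasminogen activator, in the double knockout (1.29). Both were higher in the double knockout than in *Hmgn1-/-* mESCs (*Pth1r* 1.34 and *Plat* 1.80), and stayed past the threshold in 6 of 6 fits with a library left out, at 1.25 to 1.49 and 1.71 to 1.93. *Pth1r* was also past the threshold in the double knockout against *Hmgn2-/-* mESCs (1.30), but kept this call in only 2 of 6 fits with a library left out. It was lost without *Hmgn2-/-* replicate 2 (1.31, adjusted p = 0.0485 in edgeR (quasi-likelihood test, Benjamini-Hochberg adjusted)) or without double knockout replicate 1 (1.21), 2 (1.36) or 3 (1.34). The parietal list, led by *Pth1r*, summed to 3.29, 6.88, 7.28 and 17.7 CPM in WT, *Hmgn1-/-*, *Hmgn2-/-* and *Hmgn1-/-Hmgn2-/-* mESCs, and its medians were 0.49, 0.77 and 2.06. Of 5 visceral endoderm genes 2 were tested, and edgeR put 0 past the threshold in any knockout against WT mESCs, with 0 at an unadjusted p under 0.05 and 0 by DESeq2. *Ttr* had 0 counts in all 12 libraries, and *Afp* had at most 3 counts in a library. The visceral list summed to 2.1, 1.79, 1.99 and 1.79 CPM in the same order of groups, with *Rbp4* or *Apob* as the most abundant gene and medians of −0.13, −0.03 and −0.16.

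Markers of other cell types were read as well, since *Sox17*, *Sox7* and *Foxa2* are also used outside the primitive endoderm. The mesendoderm list had 1 of 6 tested genes past the threshold in each knockout, *T* (Brachyury), which fell with −3.71, −2.89 and −3.37. *Cer1* was at 0 in all groups and the list summed to 6.76, 5.02, 5 and 4.93 CPM in WT, *Hmgn1-/-*, *Hmgn2-/-* and *Hmgn1-/-Hmgn2-/-* mESCs, with *T*, *Tbx6* or *Mixl1* as the most abundant gene and medians of 0.48, 0.18 and 0.34. The lower sum came from *T*, which had 3.72 CPM in WT mESCs. Without *T*, a choice made after seeing the data, the list summed to 3.04 ± 0.348, 4.75 ± 0.678, 4.51 ± 0.603 and 4.57 ± 0.388 CPM (SD, n = 3 each). The other tested genes, none past the threshold, were *Cxcr4* (log2 FC −0.56, −0.80 and −0.46), *Mixl1* (0.81, 0.75 and 0.89), *Tbx6* (1.28, 1.18 and 1.10), *Gsc* (0.14, −0.38 and −0.22) and *Mesp1* (1.31, 1.62 and 1.33). The endothelial list, led by *Pecam1* and with *Emcn* at 0, summed to 80.2, 51.3, 52.1 and 46.1 CPM, with medians of −1.04, −1.44 and −0.98. In it the receptor gene *Tek* was past the threshold and lower in each knockout, *Kdr* in *Hmgn1-/-* and *Hmgn1-/-Hmgn2-/-* mESCs, and *Tie1* in *Hmgn2-/-* mESCs. Mean CPM was below WT also where no call was made. It was at 28.6%, 21.4% and 29.9% of WT for *Kdr* in *Hmgn1-/-*, *Hmgn2-/-* and the double knockout, and at 49.6%, 19.7% and 42.5% for *Tie1*. *Cdh5* rose in the double knockout (2.97) from 2, 0 and 9 counts in WT mESCs to 31, 22 and 36. *Cdh5* was at 2.53 to 4.64 with a library left out, the highest without WT replicate 3, and was not tested in the single knockouts against WT mESCs. The calls of *Kdr* were kept in only 1 of 6 fits with a library left out, that without WT replicate 1, with log2 FC from −2.11 to −1.47 in *Hmgn1-/-* and from −2.03 to −1.40 in *Hmgn1-/-Hmgn2-/-* mESCs over the 6 fits.

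Of 4 tested fibroblast genes, 3 fell in each knockout (*Col1a1*, *Col1a2* and *Thy1*), where 5.08%, 4.38% and 5% of all genes were past the threshold and lower. The fibroblast list summed to 25.2, 9.99, 10.2 and 11.2 CPM, led by *Thy1* in WT mESCs and by *Twist1* in the knockouts, with *Lum* at 0 in all groups and medians of −1.71, −1.56 and −1.57. Of the trophoblast genes, *Gata3*, *Krt7* and *Hand1* fell in each knockout. The list, led by *Tfap2c*, summed to 64.3, 40.2, 45.4 and 36 CPM, with medians of −1.51, −0.95 and −0.91. The cardiac list, led by *Myh6*, summed to 10.4, 12.4, 11 and 13.4 CPM, with medians of 0.27, −0.08 and 0.42. Of its 3 tested genes edgeR put 0 past the threshold, with 1, 0 and 1 at an unadjusted p under 0.05 and 0 by DESeq2. The summed levels of the endothelial, fibroblast and trophoblast lists were thus lower in every knockout group than in WT mESCs, while the 6 genes were higher. *Pecam1* held 65.6 of the 80.2 CPM of the endothelial sum in WT mESCs and 38.4 of 46.1 in the double knockout. Not every gene of these lists was lower. *Cldn5* was at 103%, 100% and 127% of WT in *Hmgn1-/-*, *Hmgn2-/-* and the double knockout, and *Tfap2c* at 101%, 108% and 84.8%. By library, the endothelial sum was 76.8, 81.5 and 82.3 CPM in WT, 50.2, 51.8 and 52 in *Hmgn1-/-*, 48.1, 55 and 53.1 in *Hmgn2-/-*, and 44.6, 47.4 and 46.3 in *Hmgn1-/-Hmgn2-/-* mESCs. The fibroblast sum was 26.7, 22.1 and 27 CPM in WT, 9.66, 9.98 and 10.3 in *Hmgn1-/-*, 10.4, 8.93 and 11.2 in *Hmgn2-/-*, and 9.92, 12.5 and 11.1 in *Hmgn1-/-Hmgn2-/-* mESCs. The trophoblast sum was 56.2, 62.8 and 74.1 CPM in WT, 36.9, 42.3 and 41.3 in *Hmgn1-/-*, 47.2, 45.2 and 43.7 in *Hmgn2-/-*, and 34.9, 35.5 and 37.7 in *Hmgn1-/-Hmgn2-/-* mESCs. For these lists all WT libraries were above all knockout libraries, and the share of all genes with that order was not computed. The mesendoderm sum overlapped, with WT libraries at 5.03, 6.96 and 8.3 CPM and those of the knockouts between 4.24 and 5.6 CPM. What these cell types contribute to the 6 genes was not tested.

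A positive departure from additivity was more common than a negative one among the other lists, as it was over all genes tested (2.98% against 0.503%). Past the threshold and positive were *Pdgfc* (1.22), *Sparc* (1.49), *Plat* (1.80), *Tek* (1.36), the fibroblast genes *Col1a1* (1.26 to 1.65 with a library left out), *Col1a2* (3.23) and *Thy1* (1.94), and the trophoblast genes *Krt7* (2.32), *Hand1* (2.34) and *Plac1* (3.25), where 2.98% of all genes were. Of these, *Plat* kept its call in 7, *Col1a1* in 1, *Col1a2* in 6 and *Plac1* in 3 of 12 fits with a library left out, and the others in 12. The medians of the departure were 1.72 for the fibroblast, 2.32 for the trophoblast, 1.14 for the endothelial and −1.12 for the endocytic list, against −0.01 over all genes.

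**Figure D5:**
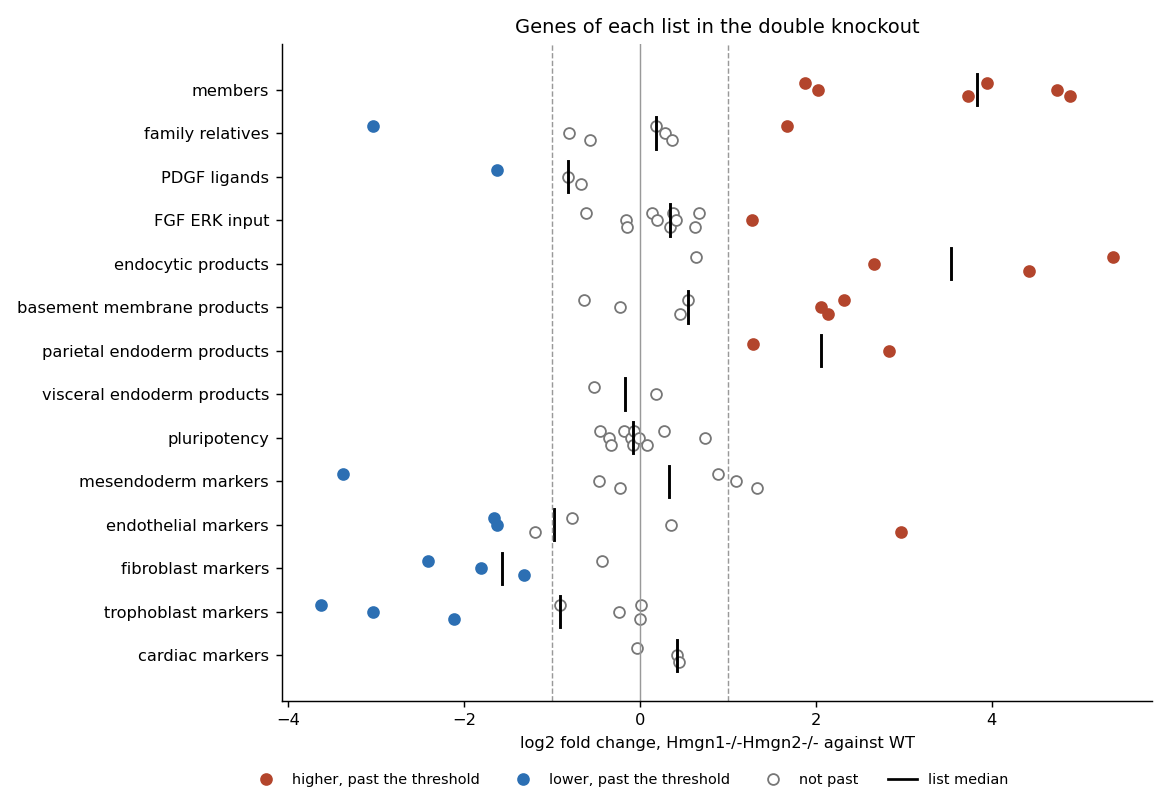
Log2 FC of each tested gene of the lists, without that of other endoderm regulators, in *Hmgn1-/-Hmgn2-/-* against WT mESCs, filled where past the threshold, with a bar at the median of each list and dashed lines at a log2 FC of 1 in size. The members, the endocytic and the parietal genes have their medians at 3.84, 3.55 and 2.06, and the pluripotency list has its median at −0.08.

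The genes whose levels followed those of the 6 most closely over the 12 libraries were found by Pearson's correlation of log2 CPM with the mean of the scaled members, among 11550 genes that averaged 50 counts or more. They were *Lama1* (r = 0.995), *Dab2* (0.992), *Cubn* (0.992), *Bmper* (0.986), which encodes a BMP-binding protein, and *Srgn* (0.985), a proteoglycan gene. The libraries share their groups, so that these values describe the group differences again and carry no p. *Bmper* went from 0.182 ± 0.0873 CPM in WT to 5.34 ± 0.472 in *Hmgn1-/-Hmgn2-/-* mESCs, and *Srgn* from 0.892 ± 0.191 to 19.2 ± 1.25 (SD, n = 3 each). For single members the closest genes were *Prosc* for *Gata4* (0.991), *Cubn* for *Gata6* (0.992) and for *Pdgfra* (0.992), *Amn* for *Sox17* (0.991), *Col4a2* for *Sox7* (0.978) and *Lama1* for *Foxa2* (0.945). *Prosc* followed the order of the groups with small steps (log2 FC 0.30, 0.31 and 0.40 against WT mESCs) that did not reach the fold limit.

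On the genome, *Gata4* and *Sox7* are neighbours on chromosome 14, with 671980 bp between them. Of the 6 protein-coding genes between them 5 were tested, with log2 FC from −2.01 to 0.34 in the double knockout against WT mESCs. Only *Fam167a* was past the threshold, and it fell, in *Hmgn1-/-* (−1.44) and in *Hmgn1-/-Hmgn2-/-* mESCs (−2.01). In *Hmgn2-/-* mESCs *Fam167a* was at −1.01 and missed only the limit on p (adjusted p = 0.0112, edgeR quasi-likelihood test, Benjamini-Hochberg adjusted). *Tdh*, a threonine dehydrogenase gene of mESCs, had the highest values (0.58, 0.37 and 0.34). Both were named after their values were seen. Exons of *Gata6*, *Sox17* and *Pdgfra* overlap exons of other annotated transcripts, mostly on the opposite strand, over 93 bp for *Gata6*, 804 bp for *Sox17* and 456 bp and 166 bp for *Pdgfra*. These transcripts are not among the genes counted, and as the use of strand in counting is not given in the sources used here, reads from them cannot be told apart from those of the genes.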

How the data were processed

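The data were raw counts per gene of 12 poly-A RNA-Seq libraries, 3 in each of 4 groups. Per the labels and the study's methods, the authors aligned paired-end reads to mm10 with STAR and deposited counts for 23412 genes. The counting program, its annotation and its use of strand are not given in the sources used here. The depth ran from 17337908 to 31448468 counts, at which 3 counts in the shallowest library correspond to 0.178 CPM. Counts were scaled by TMM and tested with the quasi-likelihood F test of edgeR 4.0.16 in R 4.3.3 (limma 3.58.1), fitted on the 6 libraries of each comparison after filterByExpr, with Benjamini-Hochberg adjustment over all genes tested. The departure from additivity was fitted on all 12 libraries, of which filterByExpr kept 14323 genes. All 6 members passed the filter in every fit and in each group alone. The threshold was an adjusted p below 0.01 together with a log2 FC of 1 or more in size. Standard errors of a log2 FC or departure were back-calculated, as its size divided by the square root of the F value of the test. RPKM used exon lengths of GENCODE M21, in which 21777 of the gene names were found. The scripts were tested on simulated data.

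Replicate numbers were checked for pairing by correlating each library's deviations from its group mean over 11555 genes. The 18 pairs with the same number had r from 0.0637 to 0.589 (median 0.266), and the 36 others from −0.492 to 0.0904 (median −0.144). The deviations within a group cancel out for each gene. Negative values among the others therefore go with positive values in the same-number pairs and are not separate evidence of pairing. The libraries were regarded as paired, from the data and not from the labels, where all 3 pairs of a comparison were over 0.1. This held for *Hmgn1-/-* and *Hmgn1-/-Hmgn2-/-* against WT, *Hmgn1-/-Hmgn2-/-* against *Hmgn2-/-*, and *Hmgn2-/-* against *Hmgn1-/-* mESCs. The main tests did not use this pairing in any comparison. Their standard errors and p are those of unpaired fits, and the replicate block was an alternative.

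The members and the lists were chosen with earlier results of these data known. Named genes were the members, list genes past the threshold, up to 4 of the most abundant others of a list (for the mesendoderm list, all tested genes), and the genes most like the members by correlation. A gene of the list of other endoderm regulators is not reported here, and that list is given without its counts and medians. Alternatives were DESeq2 1.42.0, RLE scaling, no filter beyond 1 count, an adjusted p under 0.05, no fold limit, a single fit of all 12 libraries, the replicate number as a block, and leaving out each library in turn. The single fit with the block, the sum of increases in CPM, the sums without *Hmgn2-/-* replicate 3 and the mesendoderm sum without *T* were chosen after seeing the data.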

Additional observations from a re-analysis of the deposited data

Results flagged for a closer look

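A difference between groups was found for 4 genes: the log2 effect of losing *Hmgn1* in the *Hmgn2-/-* line differed from that in WT mESCs, in edgeR's quasi-likelihood test of the interaction with Benjamini-Hochberg adjustment. The difference was −1.64 for *Gata4* (adjusted p = 1.00e-04), −1.30 for *Gata6* (adjusted p = 0.00566), −2.27 for *Sox17* (adjusted p = 1.72e-04) and −2.39 for *Pdgfra* (adjusted p = 4.80e-05, same edgeR test). *Gata6* kept its call in 4 of 12 fits with a library left out, and the others in 12. The RNA of *Hmgn1* itself was at 22.3% of WT in *Hmgn1-/-* mESCs and at 3.35% in the double knockout, with a departure of −2.63 (adjusted p = 4.25e-10, same edgeR test), and its part in the result was not tested. The cause was not tested.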

How the results depend on the processing

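The counts of members past the threshold stayed within 1.5 times the reported ones under every alternative, except in *Hmgn1-/-Hmgn2-/-* against *Hmgn2-/-* mESCs. There the count of 0 became 4 with DESeq2 (0.197% of all genes were past the threshold and higher), 4 with no filter beyond 1 count (0.109%), 3 with an adjusted p under 0.05 (0.166%), 3 in a single fit of all 12 libraries (0.119%), 4 with the replicate block (0.217%) and 4 in the single fit with the replicate block (0.189%), the last chosen after seeing the data. Leaving out single libraries gave 0 to 2 (0% to 0.0785%). The cause was not tested. The replicate block changed no other call of the members. Over the fits that left out a single library, the other counts were 4 to 4 in *Hmgn1-/-* and 4 to 4 in *Hmgn2-/-* against WT, 6 to 6 in the double knockout against WT, 5 to 5 against *Hmgn1-/-*, 0 to 0 in *Hmgn2-/-* against *Hmgn1-/-* mESCs, and 3 to 4 for the departure from additivity.

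Values that were not past the threshold and turned in sign were those of *Foxa2* in *Hmgn2-/-* against *Hmgn1-/-* mESCs (0.28 without *Hmgn1-/-* replicate 1 and 0.00 without *Hmgn2-/-* replicate 3; range −0.31 to 0.28), of *Sox7* in the same comparison (−0.14 without *Hmgn2-/-* replicate 1; range −0.14 to 0.31), and of *Foxa2* in the departure from additivity (0.08, 0.35, 0.02, 0.01 and 0.00 without WT replicate 1, *Hmgn1-/-* replicate 1, *Hmgn2-/-* replicate 1, *Hmgn2-/-* replicate 2 or double knockout replicate 1; range −0.25 to 0.35). As a sum of increases in CPM, chosen after seeing the data, the departure was positive for *Gata4* (3.75), *Gata6* (6.74), *Sox17* (2.22), *Foxa2* (0.543) and *Pdgfra* (4.61). For these values too, the cause was not tested. Of 612 values of single members, 571 kept their direction and side of the threshold, 8 were weaker (*Gata6* in the departure, with a library left out), 25 were stronger and 8 turned in sign. Of 1112 values of list genes, taken without the list of other endoderm regulators and in every comparison where the gene was past the threshold, 1051 were kept and 61 were weaker. *Foxa2* had 12 to 58 counts in a library, and *Sox17* had 16, 8 and 10 in WT mESCs.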
